A study of Mus musculus with 12 samples.

Results

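Hearts of Cd163 knockout mice (KO) were compared with hearts of wild-type mice (WT) after transverse aortic constriction (TAC), an operation that narrows the aortic arch and puts the left ventricle under pressure. The comparison holds 6 of the 12 poly(A) RNA libraries of the series, 3 per genotype, taken by the genotype and operation in the sample labels. The libraries carry the replicate numbers 1, 3 and 5 of their titles, and values below are given in that order. Every mouse of the series was male, on the C57BL/6J background and 8 weeks old at surgery, and in the TAC groups a 27-gauge needle set the width to which the aorta was tied. Cd163-/- is the only allele the labels name. They do not say which part of the gene is missing, and since no cell type is named for the deletion, cells other than macrophages may lack it too. The other 6 libraries, 3 WT and 3 KO hearts after a sham operation, are used only where a level without TAC is needed. How long after surgery the hearts were taken, and from which animal each library came, is not stated. The p-values therefore reflect the spread among the libraries, which may be technical.

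Cd163 is a scavenger receptor of tissue macrophages that takes up haemoglobin bound to haptoglobin, from which haem oxygenase then frees iron. The series title ties it to interleukin-10, a cytokine that damps inflammation. Adult heart muscle makes most of its ATP in mitochondria, chiefly by oxidising fatty acids, and a loaded heart is known to turn back towards glucose and towards genes of the fetal heart.

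Total counts ran from 16671952 to 18608925 in the WT TAC and from 14150109 to 16913259 in the KO TAC libraries. Genes of the mitochondrial genome took 24.8, 31.5 and 32.5% of the counts in WT TAC and 51.3, 48.4 and 44.03% in KO TAC. WT TAC replicate 1 stood apart from its group. On the first principal component of the 1000 most variable genes, with 77.6% of the variance, it lay at −14.8, against −40.1 and −37.4 for the other WT TAC and 29.1 to 31.6 for the KO TAC libraries. Its rank correlation with the other WT TAC libraries was 0.964 and with the KO TAC libraries 0.963 to 0.969. Results below are therefore given with all 6 libraries and without this one. Among the sham libraries, KO replicate 1 held 51.0% mitochondrial genome counts, against 30.5 to 36.9% in the other 5.

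Cd163 (ENSMUSG00000008845), the targeted gene, stood at 29.1, 13.7 and 29.5 CPM in WT TAC and 4.07, 3.68 and 3.47 CPM in KO TAC. Every KO library was below every WT library, and transcripts were still counted in all 3 KO libraries. The gene fell 6.45-fold, from 24.1 ± 8.99 to 3.74 ± 0.302 CPM (mean ± SD, n = 3 per group) (log2 fold change −2.69 ± 0.30, edgeR adjusted p = 0.00324; −2.53, adjusted p = 0.00055, without WT TAC replicate 1). Il10 (ENSMUSG00000016529), the gene of interleukin-10, had 1 count over the 3 WT TAC and 3 counts over the 3 KO TAC libraries. Neither exceeds 3 counts, the floor applied here to a group, so no difference in Il10 could be detected with libraries of this depth.

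The genotypes differed widely after TAC. Of 14921 genes tested by edgeR's quasi-likelihood test with Benjamini-Hochberg adjustment at 0.05, 2000 (13.4%) were higher and 2510 (16.8%) lower in KO, 30.2% in all. At an unadjusted p under 0.05 there were 6556. The log2 fold change reached 1 in size for 910 of the higher and 1101 of the lower genes, and 2 for 184 and 121. The median over all tested genes was −0.01. Without WT TAC replicate 1, 3691 genes (24.4%) were higher and 4007 (26.4%) lower, 50.8% in all, and 4435 of the 4510 genes called with 6 libraries were called again, none with the opposite sign. Leaving out any other library gave fewer calls: 756 higher and 1157 lower without WT TAC replicate 3, 961 and 1394 without WT TAC replicate 5. Of the KO TAC libraries, leaving out replicate 1 gave 655 and 900, replicate 3 gave 414 and 556, and replicate 5 gave 962 and 1126. The balance of directions depended on scaling. With library totals in place of TMM scaling, 648 genes were higher and 3566 lower, 15.4% of calls higher against 44.4%, and the median over all genes moved to −0.23. A change below is therefore a change relative to the bulk of transcripts, and counts of list members with 6 libraries stand beside the 13.4% of all tested genes that were higher and the 16.8% that were lower. Those without WT TAC replicate 1 stand beside 24.4% and 26.4%. Without another library 414 to 962 genes were higher and 556 to 1394 lower, of 15228 to 15343 tested. Calls were thus fewer there over all genes, and not in the lists alone.

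**Figure D1:**
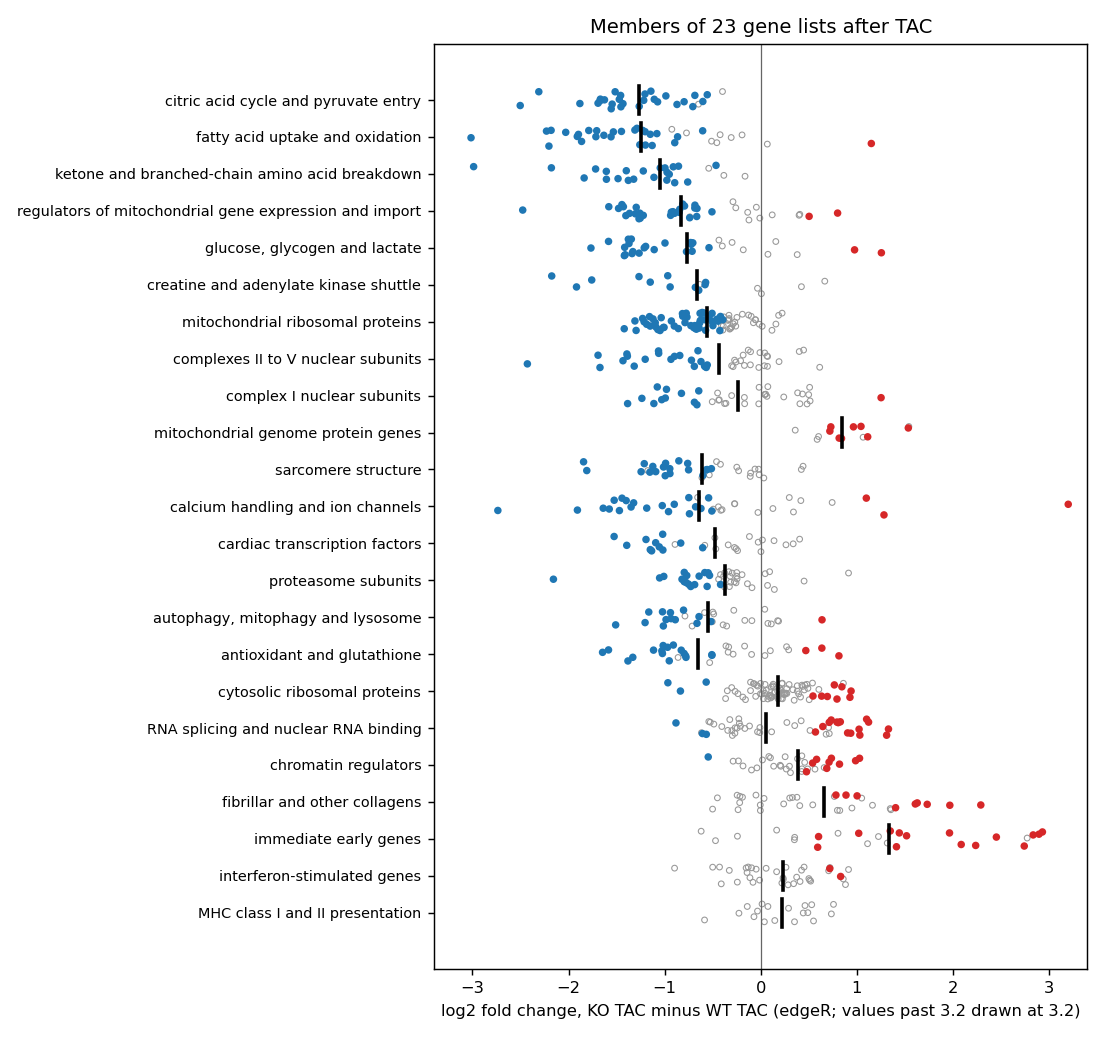
Log2 fold change of KO TAC minus WT TAC (x axis, edgeR, 6 libraries) for the tested members of 23 gene lists (y axis); filled blue and red points passed the test lower and higher in KO, open grey points did not pass, and black bars are medians. The energy metabolism lists lie left of 0, with medians of −1.26 for the citric acid cycle and −1.24 for fatty acid oxidation, and the immediate early genes lie to the right, with a median of 1.33.

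Markers of atrial muscle were among the genes with the largest increases. Myl7 (ENSMUSG00000020469), the atrial regulatory myosin light chain, stood at 0.442, 3.06 and 0.381 CPM in WT TAC and 646, 136 and 400.2 CPM in KO TAC. Sln (ENSMUSG00000042045), the atrial calcium pump regulator sarcolipin, stood at 0.344, 0.968 and 0.109 CPM in WT TAC and 173, 37 and 102 CPM in KO TAC. KO libraries were far above WT libraries in each case, and KO TAC replicate 3 was the lowest of the KO libraries. Both rose, Myl7 with a log2 fold change 8.25 ± 0.90, edgeR adjusted p = 0.00324 and Sln with a log2 fold change 7.76 ± 0.75, edgeR adjusted p = 0.00244. Both passed the filter on low counts only through the KO libraries, where they are high, so a call in the other direction was not open to them. The atrial light chain Myl4 (119-fold, edgeR adjusted p = 0.00215) and the secreted glycoprotein Dkk3 (17.7-fold, 0.00324) rose as well. Bmp10 (ENSMUSG00000030046), a growth factor of the right atrium, had 2 counts over the WT TAC and 1101 over the KO TAC libraries, a ratio of 741.7 with a 95% exact counting interval of 204.8 to 6132. Hamp, the gene of the iron hormone hepcidin, had 2 and 325 counts, a ratio of 218.9 (60.12 to 1816). Epyc, a small proteoglycan, had 1 and 81 counts, a ratio of 109.1 (19.04 to 4363). Alox8, a lipoxygenase, and Chodl, a membrane lectin, had no count in WT TAC and 78 and 59 in KO TAC, which makes them at least 35.03-fold and 26.5-fold higher against the floor of 3 counts over the group. Among the largest decreases were those of Acadvl, Cd163, Bckdha (7.93-fold), a subunit of the branched-chain keto acid dehydrogenase, and Scn4b (6.66-fold), a sodium channel subunit.

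Some marker lists of heart cell types moved with genotype, and others did not. The summed level of 6 cardiomyocyte markers was 44968 to 47416 CPM in WT TAC and 31061 to 34010 CPM in KO TAC, and 4 of the 6 fell. These were the myosin heavy chain Myh6, troponin T Tnnt2, cardiac actin Actc1 and the ryanodine receptor Ryr2. Myh6 and Tnnt2 missed the threshold without any single library other than WT TAC replicate 1 (adjusted p 0.0716 to 0.126 and 0.07 to 0.158). Tnni3, cardiac troponin I, stood at 5560, 4232 and 4011 CPM in WT TAC and 4369, 4780 and 4543 CPM in KO TAC and Myl2, the ventricular light chain, at 11648, 8064 and 7394 CPM in WT TAC and 8403, 9512 and 8174 CPM in KO TAC, and neither passed (edgeR adjusted p = 0.955 and 0.851). The 6 atrial markers summed to 253 to 551 CPM in WT TAC and 678 to 2450 CPM in KO TAC, and 1 WT sham library reached 1815 CPM. Nppa, atrial natriuretic peptide, made up most of this sum in WT TAC, and its own groups overlapped and did not pass, as given below. Adipocyte markers summed to 0.147 to 1.29 against 20.03 to 25.7 CPM. Adipoq (ENSMUSG00000022878), the fat hormone adiponectin, stood at 0, 0.269 and 0.0544 CPM in WT TAC and 2.97, 2.97 and 3.28 CPM in KO TAC. Mesothelial markers summed to 4.84 to 7.67 against 27.4 to 39.9 CPM. No count of higher members is given for these 3 lists, since members that are low in WT could pass the filter on low counts only through the KO libraries. The pathway lists below keep such members in their counts of higher genes, Sln, Cfd, Cxcl13, Hp and Hamp among them. Fibroblast markers (614 to 912 against 1096 to 1325 CPM) had 2 of 6 higher, Dcn and Dpt. Dcn missed the threshold without KO TAC replicate 1 or 3 (adjusted p 0.0583 to 0.0611). Schwann cell markers had 2 of 5 higher. Smooth muscle and pericyte markers summed to 826 to 979 CPM in WT TAC and 606 to 641 CPM in KO TAC. Of these 6 markers 1 fell and none rose, and without WT TAC replicate 1 2 fell and 2 rose. Macrophage markers summed to 208 to 332 CPM in WT TAC and 233 to 243 CPM in KO TAC, and edgeR called 0 of 6 (1 at an unadjusted p under 0.05, 0 by DESeq2). Of 6 markers of resident macrophages 3 rose: Lyve1, Timd4 and Vsig4. Of the others, 1 had a negative log2 fold change, −0.90, that did not pass. The threshold was missed by Lyve1 without WT TAC replicate 3 or KO TAC replicate 1, 3 or 5 (adjusted p 0.057 to 0.184), Timd4 without KO TAC replicate 1, 3 or 5 (adjusted p 0.0517 to 0.0697), Vsig4 without WT TAC replicate 3 or KO TAC replicate 1 (adjusted p 0.0554 to 0.0775). Erythroid markers (102 to 208 against 115 to 261 CPM) had 0 of 5 called (0 at an unadjusted p under 0.05, 0 by DESeq2). Without WT TAC replicate 1 the counts were 4 lower for cardiomyocyte and 2 higher for fibroblast markers, as with 6 libraries. Other lists changed in that setting. Endothelial markers went from 1 to 4 of 6 higher (median 0.31 to 0.58), Schwann cell markers from 2 to 3 of 5 and T cell markers from 0 to 1 of 3. Macrophage markers had 1 of 6 lower, and resident macrophage markers had 3 higher and 1 lower. In RNA from heart tissue of mixed cell types, fewer cells of a type and less RNA per cell cannot be told apart. The part of these differences in the results that follow was not tested.

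**Figure D2:**
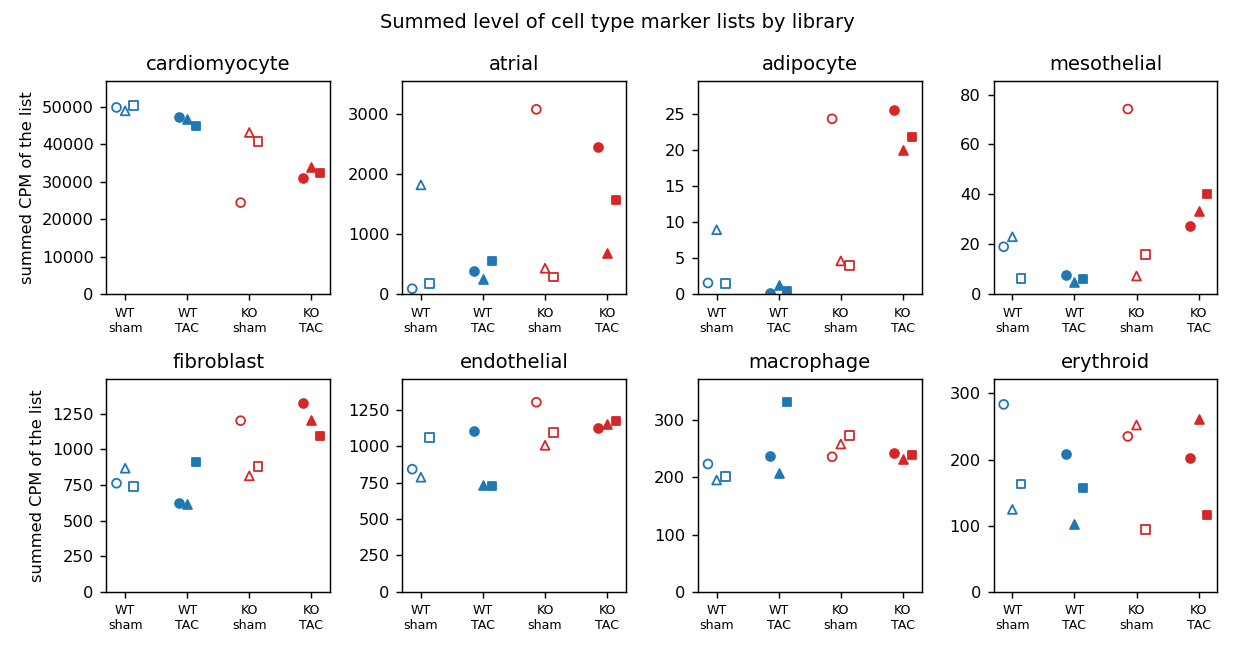
Summed TMM-scaled CPM (y axis) of 8 cell type marker lists in each of the 12 libraries, by group (x axis; circles are replicate 1, triangles and squares the next 2; WT blue, KO red; sham open, TAC filled). Cardiomyocyte sums are 31061 to 34010 CPM in KO TAC against 44968 to 47416 CPM in WT TAC, adipocyte and mesothelial sums are higher in KO TAC, and KO sham replicate 1 has the lowest cardiomyocyte sum of all libraries, 24441 CPM, the highest atrial sum, 3071 CPM, and an adipocyte sum of 24.4 CPM, within the KO TAC range.

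Genes of fatty acid uptake and oxidation fell at most steps. Of 36 genes, 27 were lower and 1 higher in KO, with a median log2 fold change of −1.24 against −0.01 over all tested genes. The counts were 29 lower and 2 higher without WT TAC replicate 1 (median −1.34), and 22 to 26 lower without any other single library. At the point of entry, Fabp3 (ENSMUSG00000028773), the cytosolic carrier of fatty acids in muscle, stood at 2770, 3162 and 2802 CPM in WT TAC and 928, 869 and 871 CPM in KO TAC. The 6 values fell into 2 narrow groups with a wide gap, a 3.28-fold decrease (log2 fold change −1.72 ± 0.16, edgeR adjusted p = 0.00215). Slc25a20 (ENSMUSG00000032602), which carries acylcarnitines across the inner mitochondrial membrane, stood at 87.2, 158 and 129 CPM in WT TAC and 35.9, 33.5 and 30.6 CPM in KO TAC and fell 3.75-fold. In the oxidation spiral, Acadvl (ENSMUSG00000018574), the very-long-chain acyl-CoA dehydrogenase, stood at 86.8, 332 and 281 CPM in WT TAC and 29.2, 25.8 and 31.7 CPM in KO TAC. WT TAC replicate 1 lay between the other WT TAC libraries and the KO libraries, which agreed closely with each other. Acadvl fell 8.08-fold (log2 fold change −3.01 ± 0.44, edgeR adjusted p = 0.0041), and its log2 fold change was −3.41, adjusted p = 2.38e-06, without WT TAC replicate 1. Acads and Hadh, the short-chain steps of oxidation, fell 3.46-fold and 3.26-fold, Eci2, which shifts double bonds, 2.3-fold, and Mlycd, which removes the inhibitor malonyl-CoA, 2.39-fold (edgeR adjusted p = 0.00346 to 0.00363 for these 4).

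A few members were looked up after their values were seen. Acadm (ENSMUSG00000062908), the medium-chain dehydrogenase, stood at 419, 809 and 799 CPM in WT TAC and 177, 167 and 202 CPM in KO TAC and fell 3.72-fold (log2 fold change −1.90 ± 0.26, edgeR adjusted p = 0.00366). Etfa, a subunit of the flavoprotein that takes electrons from these dehydrogenases, fell 4.08-fold. Its partner subunit Etfb (ENSMUSG00000004610) went the other way, with 99.99, 38.8 and 31.6 CPM in WT TAC and 123, 137 and 120.2 CPM in KO TAC (log2 fold change 1.15 ± 0.38, edgeR adjusted p = 0.0487). The highest WT value of Etfb was again that of replicate 1, and its log2 fold change was 1.84, adjusted p = 1.7e-05, without WT TAC replicate 1, while it missed the threshold without any other single library (adjusted p 0.0961 to 0.15). The carnitine transferases differed: Cpt2 of the inner membrane fell 2.19-fold (adjusted p = 0.00371), whereas Cpt1a (−0.19, 0.401) and Cpt1b (−0.93, 0.0579) of the outer membrane did not pass in edgeR. Of the regulators, Ppara, the receptor that drives fatty acid genes, fell (log2 fold change −1.15 ± 0.30, edgeR adjusted p = 0.0221), as did Esrra (log2 fold change −0.60 ± 0.19, edgeR adjusted p = 0.0409), and Ppargc1a, the coactivator of mitochondrial genes, did not pass (−0.77 ± 0.33, 0.103). Ppara missed the threshold without WT TAC replicate 3 or 5 or KO TAC replicate 1 or 3 (adjusted p 0.0646 to 0.0743). Esrra missed the threshold without WT TAC replicate 3 or 5 or KO TAC replicate 1, 3 or 5 (adjusted p 0.0718 to 0.137).

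Pyruvate entry and the citric acid cycle moved the same way. Of 29 genes, 27 fell and none rose (median −1.26). Without WT TAC replicate 1 all 29 fell (median −1.53), and without any other single library 19 to 25 did. Cs (ENSMUSG00000005683), citrate synthase, stood at 568, 883 and 927 CPM in WT TAC and 267, 246 and 259 CPM in KO TAC and fell 3.09-fold (log2 fold change −1.63 ± 0.21, edgeR adjusted p = 0.00354). WT TAC replicate 1 was the lowest WT library for Cs and still more than any KO library. Idh3b of isocitrate dehydrogenase (3.69-fold), fumarase Fh1 (2.74-fold), Ogdhl (2.4-fold) and the pyruvate carrier subunit Mpc2 (2.15-fold) fell with edgeR adjusted p of 0.00324 to 0.00363. Pdha1 (ENSMUSG00000031299), the catalytic subunit of pyruvate dehydrogenase, stood at 116, 439.8 and 468 CPM in WT TAC and 64.4, 55.2 and 61.6 CPM in KO TAC (log2 fold change −2.50 ± 0.45, edgeR adjusted p = 0.00716). The 2 genes that did not pass were Pdp1, a pyruvate dehydrogenase phosphatase (−0.40, adjusted p = 0.211), and Pcx, pyruvate carboxylase (−0.65, 0.102).

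**Figure D3:**
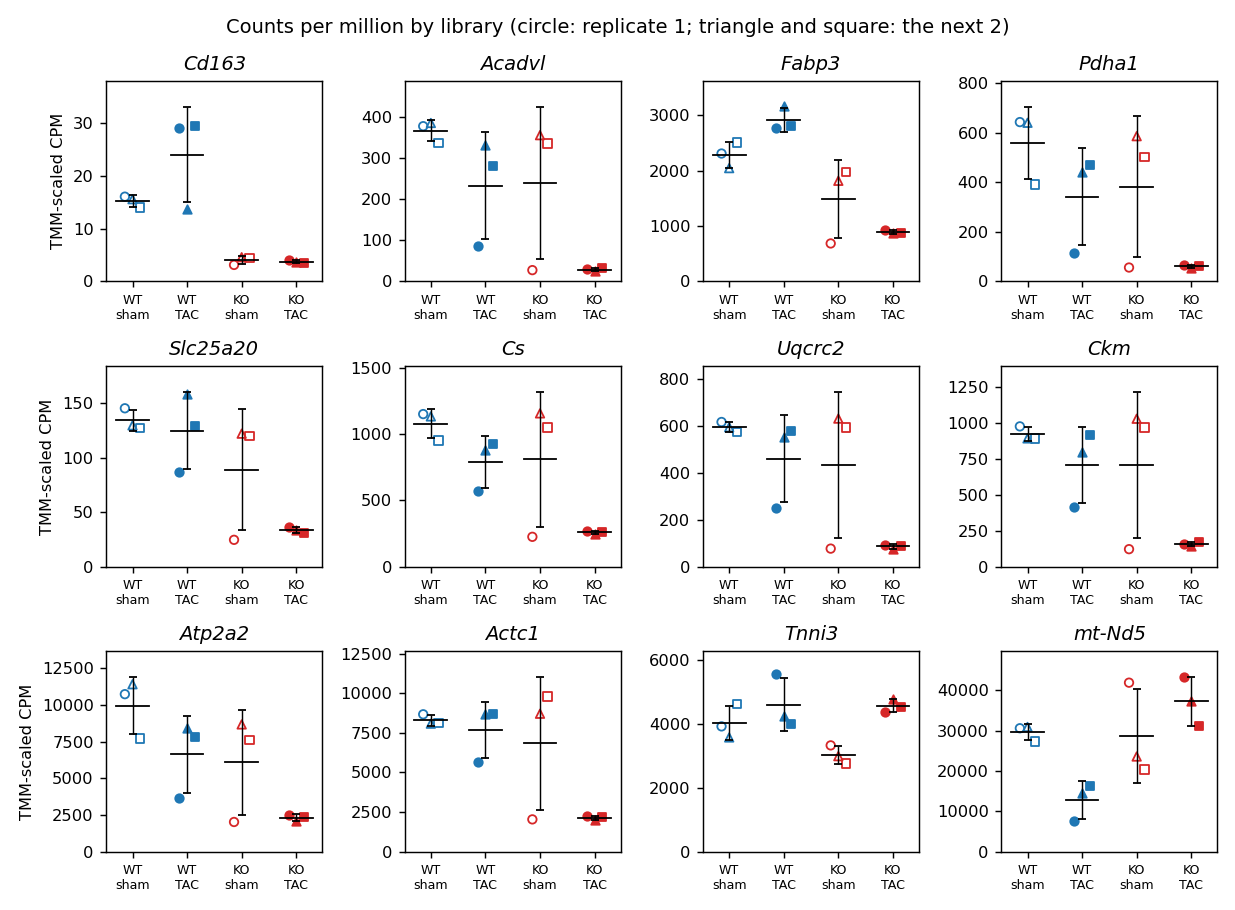
TMM-scaled CPM (y axis) of 12 genes in each library by group (x axis; circles replicate 1, triangles and squares the next 2; bars mean and SD, n = 3; WT blue, KO red; sham open, TAC filled). Acadvl, Pdha1, Slc25a20 and Cs are low and close together in KO TAC, with Acadvl at 25.8 to 31.7 CPM, while WT TAC replicate 1 lies between the groups and KO sham replicate 1 lies at the KO TAC level.

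Promoters of these genes were searched because the genes moved together. The window was the 250 bases before the RefSeq start, on build GRCm38.p6, and both strands were read for 8 motifs. The nuclear receptor half-site AAGGTCA was in 4.08% of the 32851 promoters of the table, in 3.59% of 10778 tested genes with a promoter, in 3.46% of the higher and 4.49% of the lower genes. Of the fatty acid genes 1 of 30 held it, Acadm, and of the citric acid cycle genes 0 of 25. The cAMP response element TGACGTCA was in 1.55% of all promoters, 2.98% of tested genes, 3.95% of higher and 2.65% of lower genes, and in 2 of the 25 citric acid cycle genes, Ogdh and Mdh2. Mdh2, malate dehydrogenase, fell 2.1-fold (adjusted p = 0.00399) and was looked up for this match. The 60 bases around each match are shown 5′ to 3′ on the gene's strand with the match in capitals (reversed in Acadm), at chr3:153944834-153944893 on the minus strand for Acadm and chr5:135778496-135778555 on the plus strand for Mdh2. Of the other motifs, the NRF1 site GCGCANGCGC was in 3.74% of all promoters, 8.72% of tested, 7.56% of higher and 10% of lower genes, and in 4 fatty acid and 3 citric acid cycle genes. The E-box CACGTG was in 6.02% of all promoters, 9.74% of tested, 8.97% of higher and 9.95% of lower genes, and in 1 fatty acid and 3 citric acid cycle genes. The extended half-site TCAAGGTCA, which contains the half-site, was in 0.387% of promoters, a loose MEF2-like pattern CTANNNNTAG in 3.2% and a loose CArG-like pattern CCNNNNNNGG in 67.1%. Among tested genes their shares were 0.315, 3.53 and 83.6%, and the CArG-like pattern was in 85.0% of higher and 84.2% of lower genes. They were in 0, 0 and 22 of 30 fatty acid and in 0, 1 and 20 of 25 citric acid cycle genes. A match describes these letters only.
Acadm: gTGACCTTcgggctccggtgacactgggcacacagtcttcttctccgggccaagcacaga
Mdh2: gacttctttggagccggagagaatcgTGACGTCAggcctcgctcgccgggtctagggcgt

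Genes of glucose use fell too. Of 31 genes of glucose, glycogen and lactate handling, 21 fell and 2 rose (median −0.77; 25 and 3 without WT TAC replicate 1; 8 to 17 lower without another library, the fewest without KO TAC replicate 3). Slc2a4 (ENSMUSG00000018566), the insulin-responsive glucose transporter, stood at 204, 239 and 301 CPM in WT TAC and 107, 104 and 114 CPM in KO TAC and fell 2.29-fold (log2 fold change −1.20 ± 0.18, edgeR adjusted p = 0.00486). The lactate dehydrogenase Ldhb (2.67-fold), the lactate and ketone carrier Slc16a1 (2.6-fold), Gapdh (2.67-fold; processed copies of this gene may share its reads) and glycogen phosphorylase Pygm (2.66-fold) fell (edgeR adjusted p = 0.00341 to 0.00517). Pfkfb2 (ENSMUSG00000026409), the heart form of the enzyme that makes the activator of phosphofructokinase, rose from 73.4, 59.8 and 66.1 CPM in WT TAC to 134, 175 and 169 CPM in KO TAC (log2 fold change 1.26 ± 0.17, edgeR adjusted p = 0.00363). The KO values of Pfkfb2 all lay above the WT values.

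Ketone and branched-chain amino acid breakdown had 22 of 25 genes lower and none higher (median −1.05; 23 without WT TAC replicate 1; 14 to 20 without another library). Hibadh of valine breakdown (3.29-fold), the ketone thiolase Acat1 (3.05-fold), the phosphatase Ppm1k that activates the branched-chain keto acid dehydrogenase (2.64-fold) and the transaminase Bcat2 (1.93-fold) were among them (adjusted p = 0.00346 to 0.00457). Bckdhb and Acad8 did not pass (−0.38 and −0.16). Of 16 genes of the creatine and adenylate kinase shuttle, which passes high-energy phosphate to the myofibrils, 11 fell and none rose (median −0.66; 12 and 1 without WT TAC replicate 1; 7 to 9 lower without another library). Ckm (ENSMUSG00000030399), muscle creatine kinase, stood at 412, 794 and 914 CPM in WT TAC and 155, 144 and 172 CPM in KO TAC (log2 fold change −2.18 ± 0.29, edgeR adjusted p = 0.00354). Vdac1, the outer membrane channel, fell 3.78-fold, and Ak1, adenylate kinase, 2.41-fold.

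Nuclear genes of the respiratory chain fell in part, while genes of the mitochondrial genome rose in part. Of 42 nuclear genes of complexes II to V, 21 fell and none rose (median −0.43). Uqcrc2 (ENSMUSG00000030884), a core subunit of complex III, stood at 248, 553 and 579 CPM in WT TAC and 92.6, 74.6 and 89.9 CPM in KO TAC (log2 fold change −2.43 ± 0.31, edgeR adjusted p = 0.00346). Cox5a of complex IV (2.63-fold), Sdhd of complex II (3.19-fold), Atp5c1 of ATP synthase (2.62-fold) and cytochrome c, Cycs (2.49-fold), fell too. Complex I was mixed, with 11 of 36 lower and 1 higher (median −0.24). Ndufa10 (2.36-fold) and Ndufb8 (2.16-fold) fell, while Ndufb2 (ENSMUSG00000002416), looked up after its values were seen, rose from 27, 11.7 and 10.4 to 35.3, 46.2 and 36 CPM (log2 fold change 1.25 ± 0.34, edgeR adjusted p = 0.0247). Without WT TAC replicate 1, complex I had 16 lower and 11 higher genes and complexes II to V had 21 and 4, while without another single library 7 to 11 and 11 to 19 were lower. Ndufb2 missed the threshold without WT TAC replicate 3 or 5 or KO TAC replicate 1, 3 or 5 (adjusted p 0.056 to 0.0976).

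Of the 13 protein genes of the mitochondrial genome, 8 rose and none fell (median 0.84). mt-Nd5 (ENSMUSG00000064367), a complex I subunit, stood at 7576, 14517 and 16351 CPM in WT TAC and 43291, 37415 and 31105 CPM in KO TAC (log2 fold change 1.54 ± 0.29, edgeR adjusted p = 0.00855), and every KO library was above every WT library. mt-Co1 (ENSMUSG00000064351), the catalytic subunit of complex IV, stood at 46763, 93762 and 107480 CPM in WT TAC and 191620, 176770 and 144390 CPM in KO TAC (log2 fold change 1.04 ± 0.30, edgeR adjusted p = 0.031). mt-Co1 missed the threshold without WT TAC replicate 3 or KO TAC replicate 1, 3 or 5 (adjusted p 0.0523 to 0.103). mt-Co2, mt-Cytb, mt-Nd1, mt-Nd2, mt-Nd3 and mt-Atp6 rose with log2 fold changes of 0.72 to 1.11. mt-Co3, mt-Nd4, mt-Nd4l, mt-Nd6 and mt-Atp8 did not pass in edgeR. Counts of mt-Nd4 and mt-Nd4l, and of mt-Atp6 and mt-Atp8, share overlapping bases, and those of mt-Nd6 lie opposite other transcripts, so they are uncertain where the authors' counting did not use strand. The call of mt-Nd5 held without each library in turn, but the number of calls was 7 without WT TAC replicate 1 and 5, 4, 2, 1 and 1 without WT TAC replicate 5, KO TAC replicate 5, KO TAC replicate 3, KO TAC replicate 1 and WT TAC replicate 3. With library totals 6 rose and none fell.

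The machinery that builds mitochondria fell with the nuclear respiratory genes. Of 76 mitochondrial ribosomal proteins, 48 fell and none rose (median −0.55; 53 and 2 without WT TAC replicate 1; 18 to 36 lower without another library). Mrps34 fell 2.68-fold, Mrpl34 2.23-fold and Mrpl21 2.17-fold. Of 40 regulators of mitochondrial gene expression and import, 28 fell and 2 rose (median −0.83; 32 and 3 without WT TAC replicate 1; 12 to 24 lower without another library). Timm23 (ENSMUSG00000013701), the channel of the inner membrane import complex, stood at 22.1, 72.2 and 70.9 CPM in WT TAC and 10.3, 9.62 and 9.77 CPM in KO TAC (log2 fold change −2.48 ± 0.40, edgeR adjusted p = 0.00544). Its values in the KO libraries were the same to within 1 CPM, and WT TAC replicate 1 was the lowest WT library. Timm17a of the same complex (2.65-fold), the cristae protein Chchd3 (2.69-fold) and the mitochondrial mRNA stabiliser Lrpprc (2.38-fold) fell. Looked up after their values were seen, Tfam, which packs and transcribes mitochondrial DNA, fell 2.46-fold (adjusted p = 0.00723), the fusion proteins Opa1 and Mfn2 fell 2.58-fold and 1.86-fold, and Polrmt, the mitochondrial RNA polymerase, did not pass (−0.12, adjusted p = 0.553). Opa1 missed the threshold without KO TAC replicate 3 (adjusted p = 0.0531). Mfn2 missed the threshold without WT TAC replicate 3 or KO TAC replicate 1, 3 or 5 (adjusted p 0.0524 to 0.0762).

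The lower cardiomyocyte sum and the higher share of mitochondrial genome counts in KO TAC, both given above, moved with these results. All 6 cardiomyocyte markers had negative log2 fold changes, from −1.84 for Actc1 to −0.02 for Tnni3, with a median of −0.54. With the mitochondrial genome removed before scaling, 2071 genes were higher and 2433 lower, and the median log2 fold change of the fatty acid list was −1.23.

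Contractile and electrical genes fell in part. Of 34 sarcomere genes, 19 fell and none rose (median −0.61; 23 lower and 1 higher without WT TAC replicate 1; 6 to 11 lower without another library). Actc1 (ENSMUSG00000068614) stood at 5647, 8679 and 8686 CPM in WT TAC and 2236, 2009 and 2187 CPM in KO TAC (log2 fold change −1.84 ± 0.21, edgeR adjusted p = 0.00324). Myoz2 of the Z-disc (2.18-fold), Myom2 of the M-band (2.37-fold) and the intermediate filament desmin, Des (2.32-fold), fell as well. Of 36 genes of calcium handling and ion channels, 20 fell and 3 rose, Sln among them (median −0.64; 22 and 3 without WT TAC replicate 1; 7 to 12 lower without another library). Sln passed the filter on low counts only through the KO libraries. Pln (ENSMUSG00000038583), phospholamban, the brake on the calcium pump, stood at 1195, 1792 and 1728 CPM in WT TAC and 506, 559.6 and 520.5 CPM in KO TAC (log2 fold change −1.58 ± 0.20, edgeR adjusted p = 0.00346). Atp2a2 (ENSMUSG00000029467), the calcium pump itself, looked up after its values were seen, stood at 3642, 8463 and 7829 CPM in WT TAC and 2520, 2076 and 2353 CPM in KO TAC (log2 fold change −1.52 ± 0.30, edgeR adjusted p = 0.00955). Atp2a2 missed the threshold without KO TAC replicate 3 (adjusted p = 0.0585). For Pln and Atp2a2 every KO library was below every WT library. Ryr2 (2.5-fold), calsequestrin Casq2 (2.72-fold) and the potassium channels Kcnj2 (3.75-fold) and Kcnj11 (2.55-fold) fell.

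Cardiac stress genes, several of which load is known to raise, did not rise in KO. Of 18, 7 fell and none rose (median −0.91; 11 without WT TAC replicate 1; 5 or 6 without another library, where 1 rose without WT TAC replicate 5). Nppb (ENSMUSG00000029019), brain natriuretic peptide, stood at 472, 546 and 533 CPM in WT TAC and 293, 320.1 and 197 CPM in KO TAC and fell (log2 fold change −0.94 ± 0.21, edgeR adjusted p = 0.0136). Ankrd1 (ENSMUSG00000024803), a stretch-responsive nuclear cofactor, stood at 1378, 2240 and 3164 CPM in WT TAC and 906, 875 and 666 CPM in KO TAC and fell (log2 fold change −1.47 ± 0.29, edgeR adjusted p = 0.00979). Nppa, atrial natriuretic peptide, stood at 369, 241 and 543 CPM in WT TAC and 840.4, 320.3 and 535 CPM in KO TAC, with the groups overlapping (log2 fold change 0.55 ± 0.37, edgeR adjusted p = 0.282). Myh7, the fetal myosin heavy chain, looked up after its values were seen, was at 0.34 (adjusted p = 0.25). Ankrd1 missed the threshold without KO TAC replicate 3 (adjusted p = 0.0524). Of 27 cardiac transcription factors, 11 fell and none rose (median −0.48; 15 and 2 without WT TAC replicate 1; 3 to 8 lower without another library). These included Nkx2-5 (2.03-fold), Gata4 (2.2-fold), Irx3 (2.88-fold) and the oestrogen-related receptor Esrrb (2.63-fold). Without KO TAC replicate 3 Gata4 missed the threshold (adjusted p = 0.0503).

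Hormone and adrenergic signalling genes were mixed, with 9 of 28 lower and 5 higher (median −0.04; 12 and 6 without WT TAC replicate 1; 3 to 8 lower and 1 to 4 higher without another library). Prkaca, the catalytic subunit of protein kinase A, fell 2.92-fold, Adcy5, an adenylyl cyclase of heart muscle, 2-fold, and the phosphodiesterase Pde3a 2.43-fold (edgeR adjusted p = 0.00474 to 0.00845). Npr1, the receptor of the natriuretic peptides, rose 2.27-fold (adjusted p = 0.0116). Npr1 missed the threshold without KO TAC replicate 3 (adjusted p = 0.0589).

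Several routes of protein turnover were lower. Of 41 proteasome subunits 17 fell and none rose (median −0.38; 27 and 3 without WT TAC replicate 1; 2 to 8 lower without another library). Psmb7 (ENSMUSG00000026750), a catalytic subunit, stood at 35.3, 70.0 and 75.7 CPM in WT TAC and 14, 11.8 and 14.8 CPM in KO TAC (log2 fold change −2.16 ± 0.28, edgeR adjusted p = 0.00348), the largest change of the list. Of 19 ubiquitin ligases and partners of muscle wasting 8 fell and none rose (median −0.45; 13 without WT TAC replicate 1; 2 to 6 without another library), among them Trim54 (2.8-fold) and Trim55 (3.43-fold) of the MuRF family. Of 30 autophagy and lysosome genes 13 fell and 1 rose (median −0.55; 22 and 1 without WT TAC replicate 1). Cathepsin D, Ctsd (2.02-fold), and the mitophagy kinase Pink1 (1.92-fold) fell. That count was 9 without WT TAC replicate 5, 7 without WT TAC replicate 3, 3 without KO TAC replicate 1 or 5 and 0 without KO TAC replicate 3, where Ctsd and Pink1 stood at adjusted p of 0.0511 and 0.0566.

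Antioxidant genes were lower, with 17 of 32 down and 3 up (median −0.65; 22 and 3 without WT TAC replicate 1; 5 to 11 lower without another library). Sod2 (ENSMUSG00000006818), the superoxide dismutase of mitochondria, stood at 342, 479 and 484 CPM in WT TAC and 178, 165 and 178 CPM in KO TAC (log2 fold change −1.33 ± 0.18, edgeR adjusted p = 0.00366). Prdx3 (ENSMUSG00000024997), the mitochondrial peroxiredoxin, stood at 116, 216 and 238 CPM in WT TAC and 66.9, 55 and 61.1 CPM in KO TAC (log2 fold change −1.65 ± 0.26, edgeR adjusted p = 0.00544). The glutathione transferase Gsta4 (2.61-fold) and mitochondrial thioredoxin Txn2 (1.96-fold) fell with them.

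Heat shock proteins had calls in both directions, beside 13.4% higher and 16.8% lower over all genes. Of 30 genes 9 fell and 5 rose (median −0.18; 13 and 2 without WT TAC replicate 1; 2 to 7 lower and 2 to 6 higher without another library). The small heat shock protein Hspb7 (ENSMUSG00000006221) stood at 1486, 2201 and 2332 CPM in WT TAC and 591, 548 and 519.9 CPM in KO TAC (log2 fold change −1.86 ± 0.21, edgeR adjusted p = 0.00324), and Hspb6, another, fell 2.23-fold. Among those that rose, Dnaja1 (ENSMUSG00000028410), a partner of the inducible Hsp70, stood at 43.7, 72.9 and 54.5 CPM in WT TAC and 153, 236 and 152 CPM in KO TAC (log2 fold change 1.66 ± 0.25, edgeR adjusted p = 0.00474), and Chordc1, a partner of Hsp90, rose 2.69-fold. Hspa1a (ENSMUSG00000091971), inducible Hsp70, looked up after its values were seen, stood at 1.23, 8.65 and 1.96 CPM in WT TAC and 19.9, 47.1 and 18.4 CPM in KO TAC (log2 fold change 2.85 ± 0.66, edgeR adjusted p = 0.0158). All 3 KO values were above the WT values, but without WT TAC replicate 1 the call was lost, at 2.40 on the log2 scale (adjusted p = 0.0871). Hspa1a missed the threshold without WT TAC replicate 5 or KO TAC replicate 3 (adjusted p 0.052 to 0.0697). Hspe1, the mitochondrial chaperonin 10, fell 1.92-fold (adjusted p = 0.0102, and 0.0562 without KO TAC replicate 3). The heat shock element, GAA, any 2 bases, TTC, any 2 bases, GAA, was in 0.466% of all promoter windows and 0.482% of those of tested genes, in 0.777% of higher and 0.378% of lower genes, and in 2 of 24 heat shock genes, Hspe1 and Hspd1. Whether the windows of Hspe1 and Hspd1 share bases, and so the same match, was not tested. The Hspe1 window, chr1:55088035-55088094 on the plus strand of GRCm38.p6, is shown on the gene's strand, on which the element lies reversed, in capitals:
Hspe1: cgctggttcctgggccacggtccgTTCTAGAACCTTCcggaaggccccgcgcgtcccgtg

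Among genes of nuclear RNA handling, more were called higher than lower with TMM scaling. Of 46 splicing and nuclear RNA-binding genes, 15 rose and 3 fell (median 0.05, and −0.15 with library totals; 20 and 13 without WT TAC replicate 1; 2 to 10 higher without another library, the fewest without KO TAC replicate 3; 5 higher and 8 lower with library totals). Tra2a (ENSMUSG00000029817), a splicing regulator, stood at 84.4, 72.2 and 59.4 CPM in WT TAC and 184, 196 and 165 CPM in KO TAC (log2 fold change 1.33 ± 0.18, edgeR adjusted p = 0.00363). Clk1, a kinase of splicing factors, rose 2.48-fold and the splicing factor Srsf7 1.91-fold (edgeR adjusted p = 0.00863 and 0.00836). Srsf7 missed the threshold without KO TAC replicate 3 (adjusted p = 0.0518). Of 33 chromatin regulators 9 rose and 1 fell (median 0.38; 16 and 1 without WT TAC replicate 1; 1 to 4 higher without another library; 2 and 1 with library totals). Chd7, a chromatin remodeller, stood at 28.2, 20.4 and 19.3 CPM in WT TAC and 48.3, 48.2 and 42.5 CPM in KO TAC (log2 fold change 1.03 ± 0.18, edgeR adjusted p = 0.00662). Of 13 long noncoding RNAs of the nucleus 4 rose and 1, Malat1, fell (median 0.53; 7 and 0 without WT TAC replicate 1; 0 to 2 higher without another library). Neat1, the RNA of paraspeckles, stood at 2732, 1378 and 1855 CPM in WT TAC and 3748, 5038 and 3688 CPM in KO TAC (log2 fold change 1.06 ± 0.26, edgeR adjusted p = 0.0196), and it missed the threshold without any single library other than WT TAC replicate 1 and KO TAC replicate 5 (adjusted p 0.0549 to 0.0922). Malat1 missed the threshold without WT TAC replicate 1 or 3 or KO TAC replicate 1, 3 or 5 (adjusted p 0.06 to 0.17).

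Of 80 cytosolic ribosomal proteins 8 rose and 3 fell, with a median of 0.18 that turned to −0.05 with library totals, where 1 rose and 5 fell. Without WT TAC replicate 1, 34 rose and 6 fell (median 0.26), and without another single library 1 or 2 rose. Rps21 stood at 99.5, 79.4 and 69 CPM in WT TAC and 161, 164 and 153 CPM in KO TAC (log2 fold change 0.94 ± 0.18, edgeR adjusted p = 0.00811), while Rps2 fell 1.78-fold. Rps2 missed the threshold without KO TAC replicate 3 (adjusted p = 0.0598). Ribosomal protein genes share reads with processed copies, so the single values are uncertain. Translation factors and tRNA synthetases went down, with 14 of 36 lower and 1 higher (median −0.49; 30 and 2 without WT TAC replicate 1; 3 to 6 lower without another library). Eef1a2 (ENSMUSG00000016349), the elongation factor of muscle and nerve, stood at 344, 680.4 and 809.7 CPM in WT TAC and 173, 157 and 154 CPM in KO TAC (log2 fold change −1.92 ± 0.29, edgeR adjusted p = 0.00474).

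Immediate early genes, which answer a stimulus within minutes, had the highest median of the 44 pathway lists with 6 libraries, 1.33. Of 26 genes 15 rose and none fell. Klf4 (ENSMUSG00000003032), a zinc finger factor, stood at 50.3, 39.3 and 33.6 CPM in WT TAC and 95.4, 113 and 106 CPM in KO TAC (log2 fold change 1.35 ± 0.19, edgeR adjusted p = 0.00363), and Klf2, known for its answer to blood flow, rose 2.86-fold. Both groups of Klf4 values were tight and did not overlap. Egr1 (ENSMUSG00000038418), looked up after its values were seen, stood at 25.9, 19.4 and 7.84 CPM in WT TAC and 32.9, 72.1 and 292 CPM in KO TAC (log2 fold change 2.90 ± 0.75, edgeR adjusted p = 0.0222), with KO TAC replicate 5 far above the rest, and Fos, its partner in many responses, at 2.9, 4.68 and 2.34 CPM in WT TAC and 3.38, 13.5 and 49.6 CPM in KO TAC. Neither was called without WT TAC replicate 1 (adjusted p = 0.112 and 0.192). Egr1 missed the threshold without WT TAC replicate 3 or 5 or KO TAC replicate 3 or 5 (adjusted p 0.0546 to 0.0698). Fos missed the threshold without WT TAC replicate 3 or 5 or KO TAC replicate 3 or 5 (adjusted p 0.0682 to 0.11). The number of higher genes was 7 without WT TAC replicate 1, where 1 fell, 5 and 8 without the WT TAC replicates 3 and 5, 14, 9 and 7 without the KO TAC replicates 1, 3 and 5, and the median was lowest, at 0.72, without KO TAC replicate 5. The mitochondrial genome list had a higher median in that setting, 0.97. The cAMP response element given above was in 3 of 22 promoter windows of the list, in Dusp1, Btg2 and Maff. Dusp1, a phosphatase that ends kinase signals, looked up for this match, stood at 90.4, 69.7 and 41.9 CPM in WT TAC and 99.7, 205 and 246 CPM in KO TAC (log2 fold change 1.44 ± 0.36, edgeR adjusted p = 0.0203). Dusp1 missed the threshold without WT TAC replicate 3 or 5 or KO TAC replicate 3 or 5 (adjusted p 0.0576 to 0.079). Its window, chr17:26508582-26508641 on the minus strand, reads:
Dusp1: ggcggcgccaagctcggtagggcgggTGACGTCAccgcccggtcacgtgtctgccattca

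Clock genes moved in no common direction, with 4 of 21 higher and 3 lower (median −0.01; 4 and 4 without WT TAC replicate 1; 1 to 3 higher and 0 to 2 lower without another library). Per3 stood at 34.3, 32.4 and 36.5 CPM in WT TAC and 80.9, 75.6 and 62.7 CPM in KO TAC (log2 fold change 1.08 ± 0.15, edgeR adjusted p = 0.00382), and Nr1d1, a repressor of the clock, fell 2.12-fold (adjusted p = 0.0151). Nr1d1 missed the threshold without KO TAC replicate 3 or 5 (adjusted p 0.0564 to 0.0596). The hour at which hearts were taken is not stated.

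Some collagen genes rose, while the main fibrillar collagens Col1a1 and Col3a1 did not pass. Of 34 collagen genes tested 9 rose and none fell (median 0.65; 18 and 0 without WT TAC replicate 1, median 0.96; 4 to 9 without another library, the fewest without KO TAC replicate 1). Col27a1 (ENSMUSG00000045672), a fibrillar collagen of low abundance, stood at 8.41, 6.13 and 5.61 CPM in WT TAC and 21.4, 21 and 19.3 CPM in KO TAC (log2 fold change 1.61 ± 0.19, edgeR adjusted p = 0.00331). Col22a1 (4.89-fold), Col6a6 (2.65-fold) and Col6a3 (1.85-fold) rose. Col6a3 missed the threshold without KO TAC replicate 1 or 3 (adjusted p 0.0503 to 0.0566). Col1a1, the main fibrillar collagen, stood at 75.8, 62.4 and 139 CPM in WT TAC and 83.4, 70.3 and 85.8 CPM in KO TAC, and Col3a1, looked up after its values were seen, at 239, 148 and 425 CPM in WT TAC and 199, 168 and 229 CPM in KO TAC. Both had their highest value in WT TAC replicate 5 and did not pass (adjusted p = 0.577 and 0.326). Of 41 matricellular proteins and proteoglycans 8 rose and 2 fell (median 0.31; 5 and 3 without WT TAC replicate 1; 1 to 13 higher without another library, the most without WT TAC replicate 5 and the fewest without KO TAC replicate 3). Thbs3, a thrombospondin, stood at 6.49, 5.86 and 7.35 CPM in WT TAC and 13.1, 12.3 and 13.2 CPM in KO TAC (log2 fold change 0.96 ± 0.17, edgeR adjusted p = 0.00649). Tnc (ENSMUSG00000028364), tenascin C, known from injured hearts, stood at 4.77, 18.7 and 16.6 CPM in WT TAC and 3.45, 2.89 and 4 CPM in KO TAC and fell (log2 fold change −1.95 ± 0.45, edgeR adjusted p = 0.0159). Tnc missed the threshold without WT TAC replicate 3 or KO TAC replicate 1 or 3 (adjusted p 0.0554 to 0.0737). Postn, periostin of activated fibroblasts, looked up after its values were seen, stood at 82.6, 51.5 and 294 CPM in WT TAC and 172, 139 and 139.8 CPM in KO TAC (adjusted p = 0.931). Of 32 matrix cross-linkers, proteases and inhibitors 5 rose and 3 fell, beside 13.4% higher and 16.8% lower over all genes (median 0.06, and −0.15 with library totals, where 1 rose and 5 fell). The lysyl hydroxylase Plod2 rose 2.07-fold, and the inhibitor Timp1 fell 2.67-fold (adjusted p = 0.00572 and 0.0198; list 7 and 5 without WT TAC replicate 1, 1 or 2 higher without another library). Timp1 missed the threshold without KO TAC replicate 1, 3 or 5 (adjusted p 0.0513 to 0.0881). Of 32 genes of TGF-beta and BMP signalling 8 rose and 3 fell (median 0.36; 13 and 7 without WT TAC replicate 1; 2 to 6 higher without another library; 3 and 6 with library totals). Bmp2 stood at 1.13, 0.968 and 0.98 CPM in WT TAC and 5.65, 2.97 and 3.15 CPM in KO TAC (log2 fold change 1.92 ± 0.34, edgeR adjusted p = 0.00672). Tgfb1 itself, looked up afterwards, did not pass (0.36, adjusted p = 0.0792). The higher fibroblast sum given above stands beside these counts.

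Of 30 genes of angiogenesis and hypoxia 7 rose and 5 fell (median 0.21, and −0.01 with library totals, where 1 rose and 5 fell; 13 and 6 without WT TAC replicate 1; 1 to 3 higher and 2 or 3 lower without another library). Egln3 and Egln1, the oxygen sensors that mark hypoxia-inducible factor for decay, fell 3.7-fold and 2.8-fold, and Vegfb fell 1.65-fold, while Angpt2, a vessel growth factor, rose 2.69-fold (edgeR adjusted p = 0.00414 to 0.01). Vegfb missed the threshold without KO TAC replicate 1 or 3 (adjusted p 0.0531 to 0.0669).

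Calls among interferon and antigen presentation genes depended on WT TAC replicate 1. Of 36 interferon-stimulated genes 2 rose with 6 libraries, Ddx58 and Irf1 (median 0.23, and −0.03 with library totals), and 22 rose without that library (median 0.80). Of 18 genes of MHC class I and II presentation edgeR called 0 with 6 libraries (0 at an unadjusted p under 0.05, 0 by DESeq2; median 0.22, and −0.01 with library totals) and 7 higher without it (median 0.52). Oas2 (ENSMUSG00000032690), a sensor of viral RNA, stood at 78.9, 23.8 and 28.9 CPM in WT TAC and 81.6, 76.1 and 81.8 CPM in KO TAC. WT TAC replicate 1 was as high as the KO libraries, and the other WT libraries were far lower. Its log2 fold change was 0.86 ± 0.39 (adjusted p = 0.124) with 6 libraries and 1.59, adjusted p = 2.45e-05, without WT TAC replicate 1. H2-K1 (ENSMUSG00000061232), an MHC class I heavy chain, stood at 320.3, 110.4 and 141 CPM in WT TAC and 256, 339 and 374 CPM in KO TAC (log2 fold change 0.76 ± 0.37, edgeR adjusted p = 0.142; 1.36, adjusted p = 0.000508, without WT TAC replicate 1). The same order held for H2-D1, Psmb8 of the immunoproteasome and Trim30a, with WT TAC replicate 1 within or near the range of the KO libraries. Neither Ddx58 nor Irf1 was called without any other single library (adjusted p 0.0986 to 0.124 and 0.0721 to 0.168). Without each of those libraries in turn edgeR called no interferon gene higher, and 1 lower without WT TAC replicate 3.

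**Figure D4:**
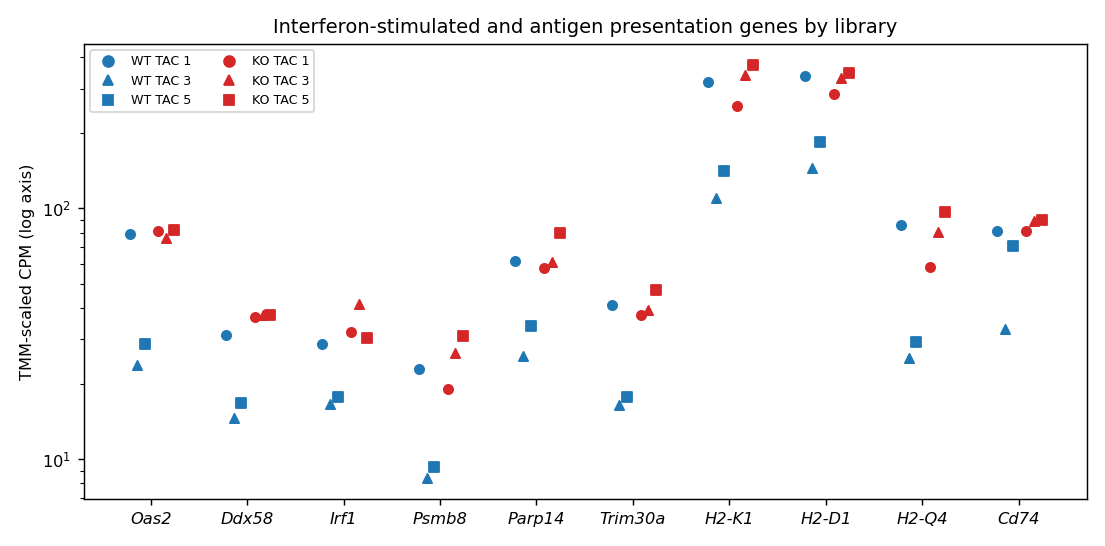
TMM-scaled CPM (log y axis) of 6 interferon-stimulated and 4 antigen presentation genes (x axis) in the 3 WT TAC (blue) and 3 KO TAC (red) libraries, with 1 symbol per replicate number. WT TAC replicate 1 (blue circles) lies with the KO TAC libraries, for Oas2 at 78.9 CPM against 76.1 to 81.8 CPM, and WT TAC replicates 3 and 5 lie lower.

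**Figure D5:**
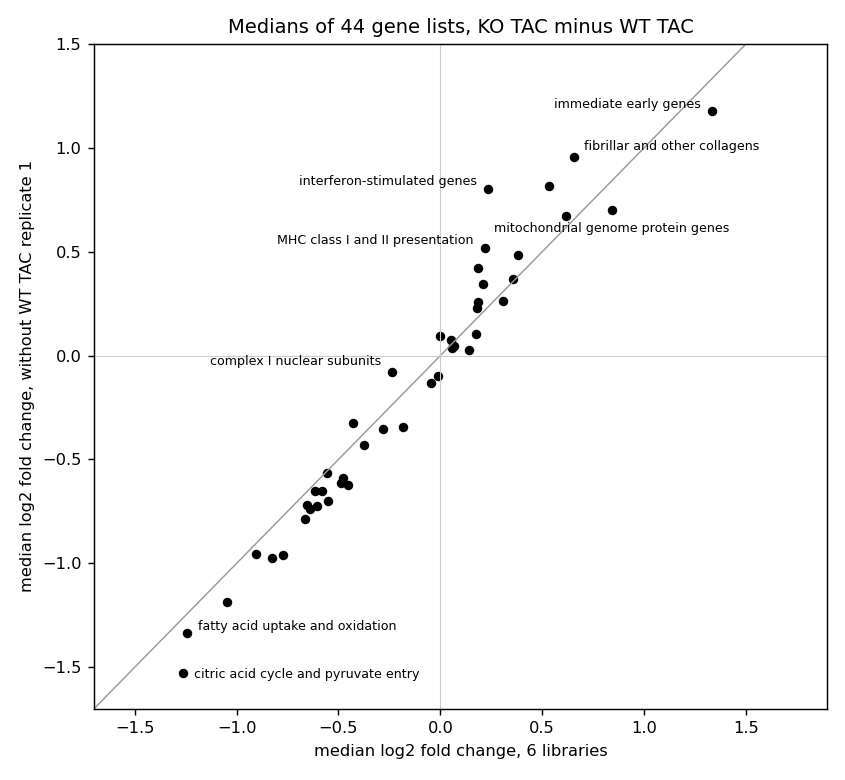
Median log2 fold change of the tested members of 44 gene lists with 6 libraries (x axis) and without WT TAC replicate 1 (y axis); the line marks equal values. Most lists lie near the line, the citric acid cycle list moves from −1.26 to −1.53, complex I from −0.24 to −0.079, and the interferon list from 0.23 to 0.80.

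Complement, cytokine and interleukin-10 genes had calls in both directions, beside 13.4% higher and 16.8% lower over all genes. Of 21 complement genes 4 rose and 1 fell (median 0.00, and −0.21 with library totals; 4 and 4 without WT TAC replicate 1; 3 or 4 higher without another library). Cfd (ENSMUSG00000061780), complement factor D, which fat cells secrete, stood at 0.0983, 0.538 and 0.163 CPM in WT TAC and 15.2, 11 and 13 CPM in KO TAC (log2 fold change 5.59 ± 0.42, edgeR adjusted p = 0.00112). Cfd is itself a member of the adipocyte sum given above, so that sum is no separate observation. It passed the filter on low counts only through the KO libraries. C4b stood at 23.7, 14 and 22.1 CPM in WT TAC and 43.9, 39 and 41.2 CPM in KO TAC (log2 fold change 1.05 ± 0.20, edgeR adjusted p = 0.00902). Of 30 cytokines and chemokines 4 rose and 3 fell (median 0.14, and −0.05 with library totals, where 2 rose and 4 fell; 7 and 3 without WT TAC replicate 1; 1 to 3 higher without another library). Cxcl13 (ENSMUSG00000023078), a chemokine for B cells, rose from 0.147, 0.161 and 0.0544 to 2.48, 2.03 and 1.18 CPM (log2 fold change 3.87 ± 0.52, edgeR adjusted p = 0.00363), and Ccr2, the receptor of recruited monocytes, fell from 4.92, 3.49 and 13.8 to 1.59, 2.5 and 2.88 CPM (log2 fold change −1.67 ± 0.51, edgeR adjusted p = 0.0367). Cxcl13 passed the filter on low counts only through the KO libraries. Ccr2 missed the threshold without WT TAC replicate 5 or KO TAC replicate 1, 3 or 5 (adjusted p 0.0744 to 0.116). Of 14 tested genes around interleukin-10, its receptor and its targets, 5 rose and 1 fell (median 0.62; 6 and 3 without WT TAC replicate 1; 1 to 3 higher without another library). Arid5a (ENSMUSG00000037447), an RNA-binding protein that stabilises cytokine mRNA, stood at 8.95, 9.35 and 8.44 CPM in WT TAC and 29.9, 34.7 and 41.2 CPM in KO TAC (log2 fold change 1.98 ± 0.17, edgeR adjusted p = 0.00203), with both groups tight. Maf, a transcription factor of macrophages that acts on Il10, rose 2.06-fold, Il4ra 1.7-fold, Sbno2 1.55-fold and Tyk2 1.65-fold, and the receptor chain Il10rb fell 1.42-fold (edgeR adjusted p = 0.00824 to 0.0418). The threshold was missed by Maf without KO TAC replicate 3 (adjusted p = 0.0504), Il4ra without KO TAC replicate 1 or 3 (adjusted p 0.0586 to 0.0728), Sbno2 without WT TAC replicate 3 or 5 or KO TAC replicate 1, 3 or 5 (adjusted p 0.0509 to 0.0875), Tyk2 without WT TAC replicate 3 or 5 or KO TAC replicate 1, 3 or 5 (adjusted p 0.0608 to 0.093), Il10rb without WT TAC replicate 3 or 5 or KO TAC replicate 1, 3 or 5 (adjusted p 0.0699 to 0.144).

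Haem and iron genes, the field in which Cd163 acts, had 14 of 32 lower and 6 higher (median −0.58; 18 and 7 without WT TAC replicate 1; 3 to 9 lower and 2 to 4 higher without another library). Alas1 (ENSMUSG00000032786), the first enzyme of haem synthesis outside red cells, stood at 106, 162 and 98 CPM in WT TAC and 32.3, 33.2 and 37.3 CPM in KO TAC and fell (log2 fold change −1.84 ± 0.22, edgeR adjusted p = 0.00335). Hp (ENSMUSG00000031722), haptoglobin, whose complex with haemoglobin Cd163 binds, stood at 0.442, 1.18 and 0.544 CPM in WT TAC and 6.9, 4.22 and 5.05 CPM in KO TAC and rose (log2 fold change 2.89 ± 0.39, edgeR adjusted p = 0.00363; 2.62, adjusted p = 0.000515, without WT TAC replicate 1). Hp passed the filter on low counts only through the KO libraries, so a call in the other direction was not open to it. Haptoglobin is also made by fat cells, and the adipocyte sum was higher in the same libraries. Hmox2, the constitutive haem oxygenase, fell 2.83-fold (adjusted p = 0.00374). Hmox1, the inducible form, looked up after its values were seen, stood at 6.64, 7.9 and 16.1 CPM in WT TAC and 6.27, 5.79 and 4.85 CPM in KO TAC and did not pass (log2 fold change −0.86 ± 0.33, edgeR adjusted p = 0.0752; −1.10, adjusted p = 0.0137, without WT TAC replicate 1). Iscu, the scaffold of iron-sulfur clusters, fell 1.66-fold. Iscu missed the threshold without KO TAC replicate 3 (adjusted p = 0.0628). Hamp, described above, rose, and it is known from atrial tissue as well as liver, and the atrial marker sum was higher in the same libraries.

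Lipid storage genes were mixed, with 7 of 31 genes of cholesterol and lipid synthesis higher and 5 lower (median 0.07, and −0.13 with library totals, where 1 rose and 7 fell; 8 and 7 without WT TAC replicate 1; 1 or 2 higher and 2 to 5 lower without another library). Plin5 (ENSMUSG00000011305), which ties lipid droplets to mitochondria, stood at 68.4, 111 and 75.9 CPM in WT TAC and 22.5, 17.8 and 20.4 CPM in KO TAC and fell (log2 fold change −2.08 ± 0.21, edgeR adjusted p = 0.00265), as did the triglyceride lipase Pnpla2 (2.69-fold), while the desaturase Scd1 rose 2.18-fold. In the cytoskeleton and adhesion list 16 of 35 fell and 6 rose (median −0.62; 18 and 6 without WT TAC replicate 1; 2 to 8 lower without another library). Dsp, desmoplakin of the junctions between heart muscle cells, fell 3.36-fold, and Actb, the actin of cells other than muscle, rose 2.36-fold (adjusted p = 0.0114 and 0.0114). Dsp missed the threshold without KO TAC replicate 3 (adjusted p = 0.0593). Actb missed the threshold without KO TAC replicate 3 (adjusted p = 0.055). Gja1, the gap junction protein of ventricular muscle, looked up after its values were seen, fell 2.03-fold (adjusted p = 0.0255). Gja1 missed the threshold without WT TAC replicate 3 or 5 or KO TAC replicate 1, 3 or 5 (adjusted p 0.0575 to 0.0915).

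Apoptosis and endoplasmic reticulum stress lists had calls in both directions, 3 higher and 5 lower of 29 (median 0.18, and −0.05 with library totals, where 1 rose and 6 fell) and 3 and 3 of 28 (median −0.28), beside the 30.2% called over all genes. Without WT TAC replicate 1 they had 7 and 6, and 4 and 9, and without another library at most 2 and 3, and 3 and 2. Ccng1, a p53 target abundant in heart, fell 3.22-fold, and Bcl2, which blocks cell death, rose 1.78-fold (adjusted p = 0.00603 and 0.0164). Bcl2 missed the threshold without WT TAC replicate 3 or KO TAC replicate 1 or 3 (adjusted p 0.056 to 0.0713). Of 29 cell cycle genes 2 rose and 1 fell (median 0.18, and −0.05 with library totals, where none rose and 3 fell; 5 and 3 without WT TAC replicate 1; none higher and 0 to 2 lower without another library). The genes were Cdkn1c, Tyms and, lower, Cdkn2c, and each missed the threshold without several single libraries (adjusted p 0.0522 to 0.09, 0.0575 to 0.103 and 0.0527 to 0.0799). Of 30 Wnt, Notch and Hippo genes 9 rose and 3 fell (median 0.17, and −0.04 with library totals, where 2 rose and 6 fell; 11 and 7 without WT TAC replicate 1; 1 to 7 higher without another library), with Jag2, a Notch ligand, 2.28-fold higher, Dll4, another, 1.76-fold, and the Hippo kinase Lats2 1.62-fold. The threshold was missed by Jag2 without KO TAC replicate 3 (adjusted p = 0.0581), Dll4 without KO TAC replicate 3 (adjusted p = 0.0557), Lats2 without KO TAC replicate 3 (adjusted p = 0.0539).

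Whether the genotype difference after TAC exceeds that after sham was asked with an interaction term over 12 libraries. EdgeR called 0 of 15804 genes (1452 at an unadjusted p under 0.05; 94 by DESeq2; 43 without a filter on low counts; 7 with library totals; 4 without WT TAC replicate 1). Without KO sham replicate 1 it called 1961 of 16196 (12.1%), 754 higher (4.66%) and 1207 lower (7.45%). Without any of the remaining libraries it called 0. The 4 genes called without WT TAC replicate 1 were Myoc, Uck2, Tnc and Retnla. KO sham replicate 1 held Acadvl at 27.6 CPM, which is the KO TAC level, against 356 and 335 CPM of Acadvl in the other KO sham and 337 to 385 CPM in the WT sham libraries. Without that library the interaction of Acadvl was −2.93 on the log2 scale (adjusted p = 0.00697), and with it −2.40 (adjusted p = 0.523). Of 36 fatty acid genes 25 had a lower and none a higher interaction without KO sham replicate 1, of 29 citric acid cycle genes 22 and none, of 76 mitochondrial ribosomal proteins 30 and none, and of 13 mitochondrial genome genes none and 9. The median sham difference of KO minus WT without that library was −0.14 for the fatty acid, −0.06 for the citric acid cycle and −0.50 for the mitochondrial genome list. For Cd163 the interaction did not pass with or without it (adjusted p = 0.553 and 0.107).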

How the data were processed

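The deposited table, the authors' own, holds raw read counts per Ensembl gene for 12 libraries, and HISAT2 is named in the submitters' processing notes without a version. For the counting program, genome build, annotation and use of strand: not given in the sources used here. Per the labels' protocols, RNA was extracted with TRIzol, selected with oligo(dT) beads and read as pairs on an MGISEQ-T7. Of 55357 identifiers 52081 matched a symbol of a mouse annotation, and 23267 had no count. Promoter windows come from a RefSeq table of build GRCm38.p6.

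The 6 TAC libraries were fitted in edgeR 4.0.16 (R 4.3.3) with filterByExpr, TMM scaling and a robust quasi-likelihood fit with 4 residual degrees of freedom. P-values were adjusted by Benjamini-Hochberg over all tested genes, and every adjusted p without another tool's name is edgeR's. CPM are the deposited counts divided by TMM-scaled library size (12 libraries), in the usual unit; ± after a log2 fold change is the SE. Counting intervals and the floor of 3 counts cover counting error only. Alternatives used DESeq2 1.42.0, limma 3.58.1 (voom with sample weights), other scalings, filters and fits, and each library left out; the fit was tested on simulated counts. Every pair of replicates differed by more than counting noise. Libraries with the same replicate number did not deviate together from their group means. Whether they shared a batch is not stated.

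Genes named are Cd163 and Il10, up to 12 per direction with the largest change among genes called with and without WT TAC replicate 1, up to 8 per direction among those at 50 CPM or more, and in each list the 6 members of smallest p, some left out or not reported here. The members of the comparison, the 61 lists (44 pathway, 17 cell type) and the rule were chosen with earlier results of these data known. Lung and liver marker lists had under 3 tested genes. With 6 libraries the T cell, B cell, neutrophil, skeletal muscle and smooth muscle lists had 0, 1, 1, 0 and 0 members higher and 0, 0, 0, 0 and 1 lower, and endothelial markers 1 and 0.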

Additional observations from a re-analysis of the deposited data

How the results depend on the processing

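With 2000 genes higher and 2510 lower in KO as the starting counts, limma-voom with sample weights gave 3535 and 3864, and a fit of 11 libraries that left out KO sham replicate 1 gave 3003 and 3582. A minimum change of 1.5-fold left 293 and 462, and library totals without TMM 648 and 3566. Leaving out 1 library gave 414 to 3691 higher and 556 to 4007 lower genes. Same-numbered libraries did not deviate together (correlations of deviations of −0.15, −0.04 and −0.14 for the 3 same-numbered pairs), which with 3 libraries per group cannot show whether they shared a batch. With the replicate number as a block 1611 genes were higher and 1840 lower. No gene called with 6 libraries was called with the opposite sign under any alternative, and Cd163 was called under each, at −2.49 to −2.97 on the log2 scale. With library totals, list medians turned to −0.046 for cytosolic ribosomal proteins, −0.049 for apoptosis and −0.043 for Wnt, Notch and Hippo genes, and those of the splicing, matrix cross-linker, angiogenesis, interferon, MHC, complement, cytokine, cholesterol and cell cycle lists, given above with this setting, were below 0 too. For the interaction, with 0 calls as given, DESeq2 called 94, no filter on low counts 43, library totals 7, and leaving out 1 library 0 to 1961. The cause of these shifts was not tested. The mitochondrial genome list has no value where its genes are removed.

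With 3 libraries per group, of which 1 WT TAC library stands between the groups, a gene that missed the threshold is not shown to be equal between the genotypes. Depth limits genes with few counts, such as Il10. The time after surgery and the part of the heart taken are not stated, and the atrial, fat and mesothelial markers vary between libraries of a group.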
